A study of Homo sapiens with 6 samples.

Results

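The enzymes that build purine and pyrimidine nucleotides from small precursors were followed here through 10 genes, PPAT, GART, PAICS, PFAS, ADSL, ATIC, IMPDH1, IMPDH2, CAD and UMPS. They were taken by gene symbol from a count table of 65746 symbols, all 10 had a row, and all 10 were among the 11550 genes with enough counts to be tested. RNA sequencing had been run on SU-DHL-8, an established human line of diffuse large B-cell lymphoma listed as wild type, after 24 h in 100 nM erianin or in the vehicle DMSO. Erianin is a small bibenzyl compound of Dendrobium orchids known to bind tubulin. Each group held 3 libraries of total RNA, numbered 1 to 3 as replicate experiments. How separate those cultures were is not stated, so p-values measure the spread between libraries, which may be in part technical. A single line in culture was used, and in such bulk RNA fewer cells with a transcript and less of it per cell cannot be told apart.

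De novo purine synthesis assembles the purine ring step by step on phosphoribosyl pyrophosphate (PRPP), a sugar phosphate, until inosine monophosphate (IMP) is reached. IMP is then turned into adenine or guanine nucleotides. Pyrimidine synthesis makes the ring first, joins it to PRPP and yields uridine monophosphate, from which the cytidine and thymidine nucleotides are made. Dividing lymphoid cells draw on both pathways for DNA and RNA, and inhibitors of IMP dehydrogenase and of dihydroorotate dehydrogenase are used as immunosuppressants for that reason.

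Total counts ran from 30956443 to 35588728 per library, so a count of 3 equalled 0.082 to 0.099 CPM (CPM being counts relative to the library's total, scaled between libraries by the TMM method of edgeR). All 8 B-lineage markers exceeded 1 CPM in every library, while the 4 T-cell, 2 erythroid and 4 epithelial or fibroblast markers stayed under 1 CPM. The B-lineage markers summed to 8124 to 8172 CPM with DMSO and 5835 to 6404 CPM with erianin. Markers went both ways: CD79A (447 to 453 CPM with DMSO, 564 to 643 CPM with erianin) and CD22 were higher in every erianin library, CD74, CD79B, PAX5 and MS4A1 lower, and BCL6 overlapped. The 4 myeloid markers summed to 4.30 to 7.27 CPM with DMSO and 9.36 to 10.6 CPM with erianin, and the part of these shifts in the results below was not tested. DMSO replicate 1 stood apart. The correlation of its log2 CPM values with those of the other DMSO libraries was 0.977 in both cases, against 0.997 between DMSO replicates 2 and 3. All 6 libraries were kept in the test, and values without DMSO replicate 1 are given for the 10 members, for the gene lists and for other genes whose call changes without it.

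PPAT and PAICS lie head to head on chromosome 4, so their shared promoter is shown first. In GRCh38, PPAT runs from 56393362 to 56435615 on the minus strand and PAICS from 56435741 to 56464579 on the plus strand. The first line below is the whole gap between them, chr4:56435616-56435740, plus strand, with each GC box (GGGCGG, either strand) in capitals. The second line is the 120 bases before the RefSeq start of CAD, chr2:27217249-27217368, plus strand, marked in the same way. CAD is shown because its level fell (below). The next lines hold an E-box (CACGTG, which reads the same on both strands, in capitals) of PPAT and another of ATIC, at chr4:56435780-56435809 on the minus strand and chr2:215312001-215312030 on the plus strand. The last line holds the cAMP response element (TGACGTCA, also the same on both strands, in capitals) before the RefSeq start of UMPS. It covers chr3:124730394-124730423, plus strand, which lies within UMPS as the GENCODE 29 annotation places it (from 124730366).
PPAT-PAICS gap: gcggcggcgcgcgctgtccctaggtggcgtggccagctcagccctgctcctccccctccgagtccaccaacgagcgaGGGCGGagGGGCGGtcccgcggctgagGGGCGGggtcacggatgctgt
CAD upstream: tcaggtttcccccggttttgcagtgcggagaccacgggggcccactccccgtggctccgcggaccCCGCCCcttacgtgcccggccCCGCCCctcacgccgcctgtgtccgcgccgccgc
PPAT E-box: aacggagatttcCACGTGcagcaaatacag
ATIC E-box: gggccggcgggcCACGTGataagcccggaa
UMPS element: gacttcgcgggTGACGTCAtcggggcgccg

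RefSeq promoter windows (GRCh38.p14, 250 bases before to 50 after a start) matched 8 of the 10 genes with 12 windows. The letters CACGTG stood in windows of 3 genes, ATIC, PAICS and PPAT, of which PAICS and PPAT share 1 copy, against 8.77% of all 27305 genes in the table. That shared copy lies 182 bases before the start of PPAT but 41 bases after a RefSeq start of PAICS. It is thus within PAICS and outside the gap shown. The ATIC copy shown lies 46 bases before its RefSeq start, 215312059, but within ATIC as GENCODE 29 places it (from 215311817). GC boxes stood in windows of 7 of the 8 genes, against 48.3% of all genes, and the response element in that of UMPS only, against 2.25%. The GC boxes of PPAT are those of the gap shown and are also counted for PAICS, which has others in a further window. The PPAT-PAICS gap is 76.0% G or C. These matches describe the letters and were not tied to any factor by measurement.

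Of the 10 genes, IMPDH1 rose with erianin, IMPDH2 and CAD fell, and 7 were not called. A call means an adjusted p under 0.05 from the quasi-likelihood test of edgeR, Benjamini-Hochberg adjusted over all 11550 genes. Among all genes tested, 11.8% were called higher and 12.3% lower, so 1 and 2 of 10 members lie near the background. Of all calls 49.0% were higher, against 61.7% with upper-quartile scaling and 66.7% with total counts alone. The median log2 fold change of the members was -0.11, against -0.00 over all genes tested. Levels of the 2 groups did not overlap for 5 members, PPAT and IMPDH1 with erianin higher and ATIC, IMPDH2 and CAD with erianin lower. The same held for 46.8% of all genes tested. With DMSO replicate 1 left out, the members called were PPAT and IMPDH1 upwards and PFAS, ATIC, IMPDH2 and CAD downwards. In that fit 27.8% of all genes were called higher and 27.4% lower, and the members' median was 0.01 against 0.03 for all genes.

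**Figure D1:**
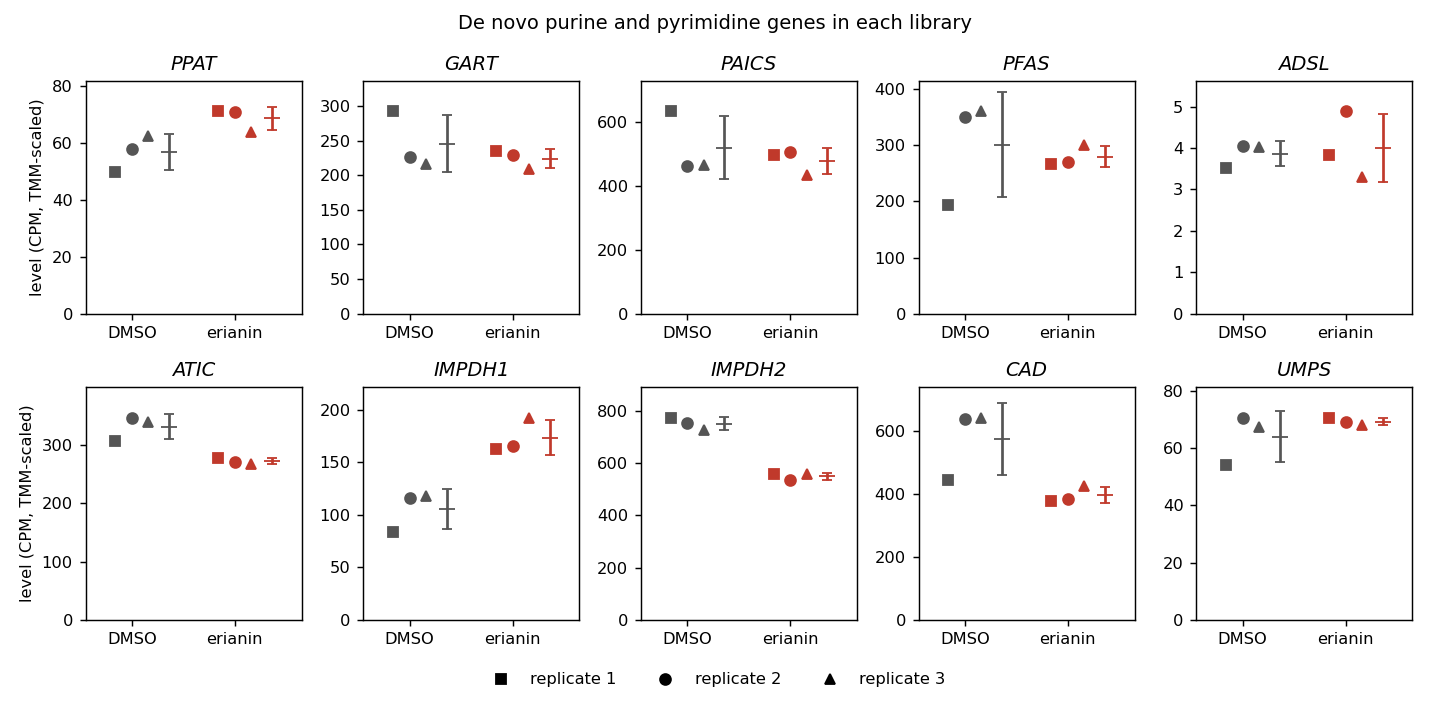
Level of each gene in each library (y axis, CPM scaled by TMM, starting at 0; the range differs between panels), for 3 DMSO libraries in grey and 3 erianin libraries in red. Symbols mark the replicate number, and the bars beside them give the mean and SD. IMPDH1 shows all erianin points above all DMSO points, and IMPDH2, ATIC and CAD the reverse. As a ratio, DMSO replicate 1 lies furthest from the other DMSO points for PFAS, CAD, IMPDH1, PAICS and GART.

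The isozyme genes of IMP dehydrogenase, the enzyme that commits IMP to guanine nucleotides, went opposite ways, and with all 6 libraries IMPDH1 had the largest log2 fold change of the 10 members in size (without DMSO replicate 1, CAD did). IMPDH1 (ENSG00000106348, chromosome 7, 128392277 to 128410252, minus strand) had 84.1, 116 and 118 CPM in DMSO replicates 1, 2 and 3 and 163, 166 and 193 CPM in erianin replicates 1, 2 and 3. Every erianin library lay above every DMSO library. The mean rose from 106 ± 18.9 to 174 ± 16.6 CPM (SD, n = 3 each), a log2 fold change of 0.71 ± 0.16 (SE, adjusted p = 0.017 by edgeR).

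IMPDH2 (ENSG00000178035, chromosome 3, 49024325 to 49029408, minus strand) had 774, 752 and 727 CPM with DMSO and 558, 533 and 556 CPM with erianin. The erianin libraries were all lower, and the 3 values within a group lay close together. The mean fell from 751 ± 23.4 to 549 ± 13.8 CPM (SD, n = 3 each), a log2 fold change of -0.45 ± 0.09 (SE, adjusted p = 0.014 by edgeR). IMPDH2 was the more abundant isozyme in every library, and the sum of both genes was 857 ± 11.4 CPM in the DMSO libraries and 723 ± 25.2 CPM in the erianin libraries (SD, n = 3).

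Per unit of length, in the deposited TPM (transcript abundances scaled for gene length), IMPDH2 stood 25.3, 17.9 and 16.9 times above IMPDH1 in DMSO replicates 1, 2 and 3. The ratio was 9.43, 8.84 and 7.93 in erianin replicates 1, 2 and 3. A ratio within a library does not depend on how libraries are scaled against each other. The groups did not overlap, which follows from the levels above, as IMPDH1 was higher and IMPDH2 lower in every erianin library. How often ratios of other gene pairs keep the groups apart was not measured, for this ratio or those below. Its mean was 20.03 ± 4.57 with DMSO and 8.73 ± 0.756 with erianin (SD, n = 3). DMSO replicate 1 was the highest, and the other DMSO libraries were still above all erianin libraries.

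Leaving out single libraries ended both IMPDH calls in several fits. Both held without DMSO replicate 1, at 0.59 (adjusted p = 1.5e-07 by edgeR) for IMPDH1 and -0.42 (adjusted p = 1.3e-06) for IMPDH2. IMPDH1 was not called without erianin replicate 1, 2 or 3 (adjusted p = 0.061, 0.067 and 0.076 by edgeR). IMPDH2 was not called without erianin replicate 1, 2 or 3 or DMSO replicate 2 (adjusted p = 0.082, 0.097, 0.052 and 0.0505 by edgeR). Over these fits with 1 library left out, the log2 fold change ran from 0.59 to 0.79 for IMPDH1 and from -0.48 to -0.42 for IMPDH2.

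**Figure D2:**
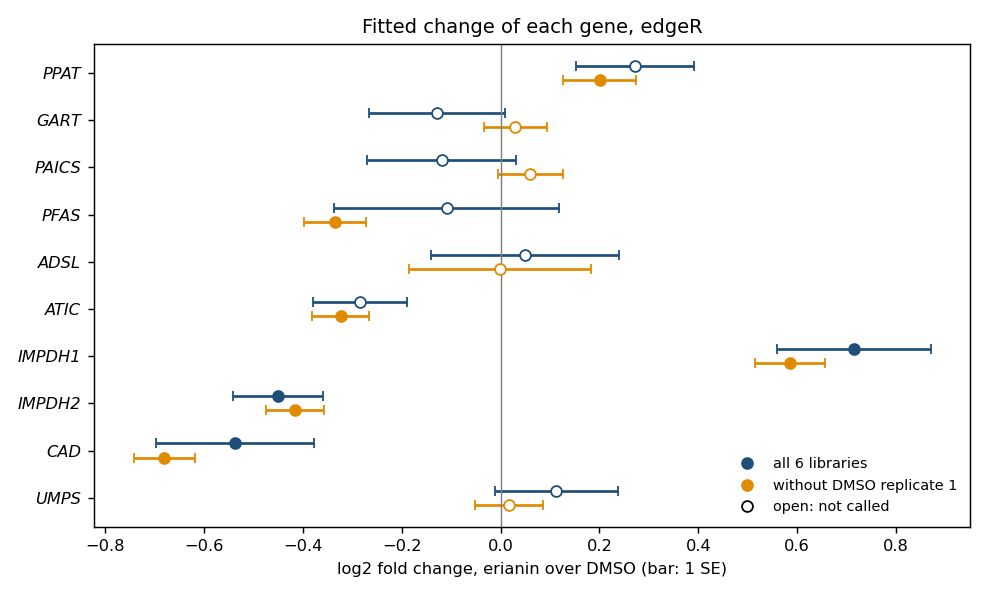
Fitted log2 fold change of each gene, erianin over DMSO (x axis; bars are 1 SE), with all 6 libraries in blue and without DMSO replicate 1 in orange. Filled points were called and open points were not. IMPDH1 lies at 0.71, IMPDH2 at -0.45 and CAD at -0.54 with all libraries, and PFAS, ATIC and PPAT are filled only in the fit without DMSO replicate 1.

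In the pyrimidine pathway, the gene of the opening enzyme fell and that of the closing enzyme was not called. CAD (ENSG00000084774, chromosome 2, 27217390 to 27243943, plus strand) encodes the multifunctional protein that carries out the opening steps, from carbamoyl phosphate to dihydroorotate. It had 444, 639.9 and 645 CPM with DMSO and 379, 386 and 427 CPM with erianin. All erianin libraries were lower than all DMSO libraries, but DMSO replicate 1 lay near the erianin range. The mean fell from 576 ± 114 to 397 ± 26.3 CPM (SD, n = 3 each), a log2 fold change of -0.54 ± 0.16 (SE, adjusted p = 0.047 by edgeR).

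The call of CAD lay close to the threshold. The fit that left out DMSO replicate 1 gave -0.68 ± 0.06 (SE, adjusted p = 1.2e-09 by edgeR). It was not called without DMSO replicate 2 or 3 (adjusted p = 0.13 and 0.12 by edgeR) or without erianin replicate 1, 2 or 3 (adjusted p = 0.17, 0.17 and 0.11 by edgeR). Upper-quartile scaling, total counts alone, the 1 CPM filter and limma-voom also ended the call (adjusted p = 0.055 to 0.089), whereas offsets for GC content and length kept it (adjusted p = 0.023).

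UMPS (ENSG00000114491, chromosome 3, 124730366 to 124749273, plus strand) makes uridine monophosphate from orotate, the end of the pathway. It had 53.9, 70.6 and 67.4 CPM with DMSO and 70.6, 69.0 and 68.1 CPM with erianin. The groups overlapped, with DMSO replicate 1 lowest (log2 fold change 0.11 ± 0.13, SE, adjusted p = 0.55 by edgeR; 0.02 and adjusted p = 0.86 without DMSO replicate 1). CAD stood 8.59, 9.45 and 9.97 times above UMPS in TPM with DMSO and 5.60, 5.83 and 6.55 times with erianin. Here DMSO replicate 1 lay beside the other DMSO libraries, and the groups did not overlap.

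ATIC over PFAS, the other ratio computed, was 1.91, 1.19 and 1.13 with DMSO and 1.25, 1.20 and 1.06 with erianin, and these groups overlapped.

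**Figure D3:**
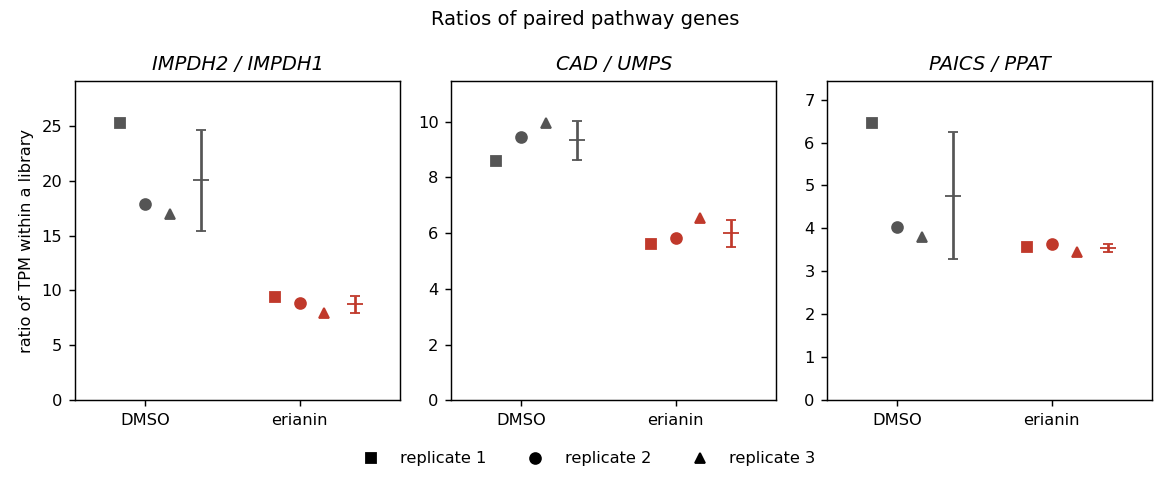
Ratio of the TPM values of 2 genes within a library (y axis, starting at 0), for IMPDH2 over IMPDH1, CAD over UMPS and PAICS over PPAT. Grey is DMSO, red is erianin, symbols give the replicate number and bars the mean and SD. The erianin points lie below the DMSO points in each panel, at 8.73 against 20.03 for IMPDH2 over IMPDH1.

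The genes of the path from PRPP to IMP were not called with all 6 libraries. PPAT (ENSG00000128059), the amidotransferase that commits PRPP to purines, had 49.9, 58.1 and 62.5 CPM with DMSO and 71.1, 70.9 and 63.9 CPM with erianin. The groups did not overlap, but erianin replicate 3 and DMSO replicate 3 lay close together. Its log2 fold change was 0.27 ± 0.12 (SE, adjusted p = 0.14 by edgeR), and without DMSO replicate 1 it was called higher at 0.20 ± 0.07 (adjusted p = 0.025).

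PAICS (ENSG00000128050), a bifunctional enzyme of the middle steps, had 634, 462 and 466 CPM with DMSO and 499, 506 and 433 CPM with erianin. DMSO replicate 1 was the highest of all, and the rest of the values overlapped (log2 fold change -0.12 ± 0.15, SE, adjusted p = 0.61 by edgeR; 0.06 and adjusted p = 0.46 without DMSO replicate 1). PAICS stood 6.46, 4.04 and 3.79 times above its divergent neighbour PPAT in TPM with DMSO and 3.56, 3.63 and 3.45 times with erianin. The groups did not overlap, though apart from DMSO replicate 1 the values were close.

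GART (ENSG00000159131, chromosome 21, 33503931 to 33543491, minus strand), a trifunctional enzyme of the path, was also highest in DMSO replicate 1. It had 292, 227 and 216 CPM with DMSO and 235.0, 229 and 209 CPM with erianin (log2 fold change -0.13 ± 0.14, SE, adjusted p = 0.53 by edgeR). Leaving that library out gave 0.03 (adjusted p = 0.72). GART shares 275 of its 7751 exonic bases with SON on the opposite strand, and as the handling of strand is not stated, reads there could be assigned to either gene or to neither.

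PFAS (ENSG00000178921, chromosome 17, 8247618 to 8270491, plus strand), which adds the nitrogen of glutamine to the growing ring, had 193, 350.35 and 361 CPM with DMSO. With erianin it had 266, 271 and 301 CPM, above DMSO replicate 1 and below DMSO replicates 2 and 3. With all libraries the log2 fold change was -0.11 ± 0.23 (SE, adjusted p = 0.76 by edgeR). PFAS was called lower without DMSO replicate 1, at -0.33 ± 0.06 (adjusted p = 6.2e-05), and without DMSO replicate 2 or 3 its sign turned, to 0.01 and 0.04.

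ATIC (ENSG00000138363, chromosome 2, 215311817 to 215349773, plus strand) closes the ring and releases IMP. It had 307, 347 and 339.6 CPM with DMSO and 278, 271 and 267 CPM with erianin. All erianin libraries were lower, yet the test gave -0.28 ± 0.09 (SE, adjusted p = 0.067 by edgeR). ATIC was called lower without DMSO replicate 1 (-0.32 ± 0.06, adjusted p = 3.8e-05), by DESeq2 (adjusted p = 0.019) and with offsets for GC content and length (adjusted p = 0.019). In 14 of the 17 alternatives it stayed without a call, and its log2 fold change over all 17 ran from -0.32 to -0.0094.

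ADSL (ENSG00000239900, chromosome 22, 40346500 to 40390463, plus strand), which acts in the path to IMP and again on the way to AMP, had only 107 to 169 counts per library. That is 3.52 to 4.04 CPM with DMSO and 3.29 to 4.88 CPM with erianin, and the groups overlapped (log2 fold change 0.05 ± 0.19, SE, adjusted p = 0.87 by edgeR; -0.00 and adjusted p = 0.998 without DMSO replicate 1). In GENCODE 29 it shares 1344 of 7111 exonic bases with AL022238.4, a protein-coding gene on the same strand. How the authors' counting treated reads in that stretch is not stated, so the low level of ADSL was not read as low expression.

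Compared per length, IMPDH2 was the most abundant of the 10 genes in all 6 libraries, with 32.9% to 40.6% of their summed TPM. CAD, PAICS, ATIC and PFAS followed, at 14.8% ± 2.55, 13.99% ± 3.11, 12.2% ± 0.414 and 9.21% ± 2.66 with DMSO (SD, n = 3). CAD, PAICS and ATIC overlapped with each other, whereas PFAS lay below ATIC in every library. With erianin PAICS stood at 15.5% ± 1.33, CAD at 12.4% ± 0.815, ATIC at 12.1% ± 0.217 and PFAS at 10.4% ± 0.693 (SD, n = 3), PAICS then lying above CAD in all 3. GART came next in every library but DMSO replicate 1, at 5.09% ± 1.02 with DMSO and 5.60% ± 0.347 with erianin. The committing enzyme PPAT had 2.99% ± 0.265 and 4.36% ± 0.269, and IMPDH1 1.95% ± 0.296 and 3.87% ± 0.368 (DMSO and erianin, SD, n = 3). PPAT and IMPDH1 lay apart with DMSO and within their spread with erianin. UMPS was ninth and ADSL last in every library, the latter at 0.075% to 0.122%. Together the 10 genes summed to 2956 ± 104 CPM in the DMSO libraries and 2517 ± 8.79 CPM in the erianin libraries (SD, n = 3), on the CPM scale, which does not adjust for length.

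DMSO replicate 1 differed from the other DMSO libraries in a way that varied among the members. Its log2 ratio to the mean of DMSO replicates 2 and 3 was -0.88 for PFAS, -0.53 for CAD, -0.47 for IMPDH1 and -0.36 for UMPS. For PPAT, ADSL and ATIC it was -0.27, -0.20 and -0.16. It was 0.07 for IMPDH2, 0.40 for GART and 0.45 for PAICS. The G and C content of the longest GENCODE 29 transcript was 58.2% for PFAS, 57.7% for CAD and 62.8% for IMPDH1, against 46.6% for GART and 42.3% for PAICS. Across the 10 genes, which share these libraries, Pearson's r between the log2 ratio and G and C content was -0.52 and Spearman's rho -0.61, as a description. PPAT, at 33.8%, lay off that relation. The part of base composition in the results was not tested beyond the offsets above.

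Around these 10 genes, 58 others were listed by role, 3 of them as upstream regulators and the rest in nucleotide metabolism. In all, 51 were tested. Of these, 3 rose, 14 fell and 34 were not called, with a median log2 fold change of -0.20. Their background is the 11.8% called higher and 12.3% called lower among all genes. Leaving out DMSO replicate 1 gave 8 called higher and 28 lower, in a fit that called 27.8% of all genes higher and 27.4% lower. The lists for one-carbon units and for deoxynucleotides held 4 falls each.

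The folate enzymes that supply the formyl groups used by GART and ATIC gave 4 falls, 0 rises and 5 genes not called among 9 tested (6 falls and 1 rise without DMSO replicate 1). MTHFD2, the mitochondrial dehydrogenase, had 317, 319 and 312 CPM with DMSO and 195, 193 and 174 CPM with erianin. The DMSO values were close together and all erianin values lower (log2 fold change -0.75 ± 0.09, SE, adjusted p = 0.0033 by edgeR). MTHFD1, the cytosolic enzyme that makes formyl-tetrahydrofolate, fell from 418 ± 7.68 to 267 ± 2.89 CPM (SD, n = 3 each; adjusted p = 0.0038 by edgeR). The serine hydroxymethyltransferase genes SHMT1 and SHMT2, which load one-carbon units onto folate, fell by 0.61 and 0.63 on the log2 scale (adjusted p = 0.010 and 0.016 by edgeR). MTHFD1 and MTHFD2 were called with any 1 library left out (adjusted p up to 0.042 and 0.033). SHMT1 was not called without erianin replicate 1 or 2 (adjusted p = 0.071 and 0.069), nor SHMT2 without DMSO replicate 2 or any erianin library (adjusted p = 0.052 to 0.089). MTHFD2 shares 1324 of 4870 exonic bases with SLC4A5 on the opposite strand, and SLC4A5 had 10.7 counts on average.

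**Figure D4:**
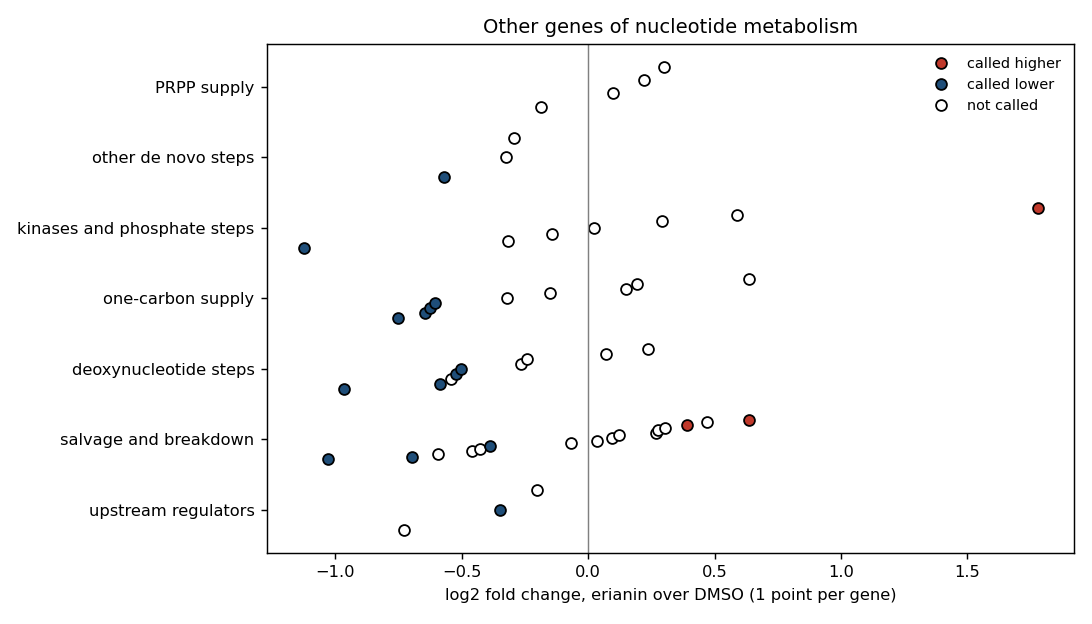
Log2 fold change, erianin over DMSO (x axis), of each tested gene in 7 lists of nucleotide metabolism and its upstream regulators (rows), 1 point per gene. Red points were called higher, blue points lower and white points were not called by edgeR with all 6 libraries. The one-carbon and deoxynucleotide lists each hold 4 blue points and 0 red ones.

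Genes that turn ribonucleotides into DNA precursors also gave 4 falls, 0 rises and 5 not called among 9 tested (7 falls and 0 rises without DMSO replicate 1). RRM2, the regulated subunit of ribonucleotide reductase, had 246, 228 and 247 CPM with DMSO and 131, 129 and 109 CPM with erianin. No erianin library came near the DMSO range, and the fall was 1.95-fold (log2 fold change -0.96 ± 0.11, SE, adjusted p = 0.0026 by edgeR). RRM2 was called with any 1 library left out (adjusted p up to 0.028). It shares 1077 of 5323 exonic bases with AC007240.1, a gene on the same strand.

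RRM1, the large subunit, fell from 354 ± 41.8 to 236 ± 15.6 CPM (SD, n = 3; adjusted p = 0.014 by edgeR). TYMS, thymidylate synthase, fell from 128 ± 11.4 to 90.3 ± 0.625 CPM (SD, n = 3; adjusted p = 0.015 by edgeR). RRM1 lost its call in each fit that left out 1 erianin library (adjusted p = 0.064 to 0.075 by edgeR). TYMS lost its call in each fit that left out 1 library other than DMSO replicate 1 (adjusted p = 0.051 to 0.089). RRM2 has near-identical processed copies in the genome, and TYMS shares 967 of 2470 exonic bases with ENOSF1 on the opposite strand, and how such reads were assigned is not stated.

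The 3 tested genes of the other de novo steps all had negative log2 fold changes, and 1 was called (3 without DMSO replicate 1). GMPS, which makes GMP from the product of IMP dehydrogenase, had 241, 200.1 and 199 CPM with DMSO and 145, 148 and 138 CPM with erianin, with no overlap. It fell by 0.57 ± 0.11 on the log2 scale (SE, adjusted p = 0.012 by edgeR), but was not called without erianin replicate 1, 2 or 3 (0.074, 0.071 and 0.059). DHODH, the mitochondrial dehydrogenase between CAD and UMPS, averaged 44.6 ± 3.10 CPM in the DMSO libraries and 36.4 ± 1.54 CPM in the erianin libraries (SD, n = 3; adjusted p = 0.079 by edgeR). CTPS1, which makes CTP from UTP, had 230.3 ± 26.3 and 184 ± 3.66 CPM (adjusted p = 0.076). Both were called lower without DMSO replicate 1, at -0.33 and -0.40 (adjusted p = 0.00065 and 2.6e-06).

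CTPS2, its paralog, had 3 counts over all 6 libraries. ADSS2, the enzyme that leads IMP towards AMP, was listed at 0 in every library. GENCODE 29 lists ADSS2 under its older symbol, and that 0 was not read as absence.

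PRPP synthetases, which feed both pathways, were not called. PRPS1 averaged 146 ± 21.1 CPM in the DMSO and 156 ± 4.94 CPM in the erianin libraries, and PRPS2 57.4 ± 3.64 and 66.9 ± 1.93 CPM (SD, n = 3; adjusted p = 0.62 and 0.15 by edgeR). PRPS2 was called higher without DMSO replicate 1 (0.19, adjusted p = 0.028). All 4 genes of the PRPP list were without a call with all 6 libraries, and 2 were called higher and 1 lower without DMSO replicate 1.

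Salvage and breakdown genes went both ways, with 2 rises, 3 falls and 11 not called among 16 tested (4 rises and 7 falls without DMSO replicate 1). PNP, which cleaves purine nucleosides to free bases, had 83.0, 98.7 and 97.7 CPM with DMSO and 152, 143 and 140.0 CPM with erianin. All erianin libraries were higher (log2 fold change 0.64 ± 0.11, SE, adjusted p = 0.0081 by edgeR). PNP was not called without erianin replicate 1 (adjusted p = 0.056).

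DCK, deoxycytidine kinase, fell from 108 ± 20.3 to 66.9 ± 5.86 CPM, and DPYD, which starts pyrimidine breakdown, from 82.0 ± 2.35 to 62.7 ± 2.88 CPM (SD, n = 3; adjusted p = 0.018 and 0.026 by edgeR). DCK lost its call in each fit that left out 1 erianin library (adjusted p = 0.072 to 0.085), and DPYD in each that left out 1 library other than DMSO replicate 1 (0.062 to 0.12). The other calls here, TK1 (thymidine kinase, -1.03, adjusted p = 0.030) and UPRT (0.39, adjusted p = 0.043), are named after their values were seen. They also lost their calls in each fit that left out 1 library other than DMSO replicate 1 (0.071 to 0.12 for TK1 and 0.080 to 0.17 for UPRT). The purine salvage enzymes HPRT1 and APRT were not called (adjusted p = 0.61 and 0.92 by edgeR). APRT had 28.6, 101 and 93.3 CPM in DMSO replicates 1, 2 and 3 and 66.7 to 78.5 CPM under erianin. The first of these set it apart, and APRT was called lower when that library was left out, at -0.44 (adjusted p = 2.2e-05).

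Among nucleotide kinases, 1 rose, 1 fell and 5 were not called of 7 tested (1 rise and 2 falls without DMSO replicate 1). Both calls were of low-level genes. AK1 averaged 0.244 ± 0.168 CPM in the DMSO and 0.854 ± 0.138 CPM in the erianin libraries, and NME4 2.84 ± 0.215 and 1.30 ± 0.255 CPM (SD, n = 3; adjusted p = 0.033 and 0.010 by edgeR). AK1 was not called without DMSO replicate 3 or any erianin library (adjusted p = 0.074 to 0.12), and NME4 without erianin replicate 1 or 2 (0.059 and 0.061). AK1 shares 894 of 2667 exonic bases with AL157935.2, and NME4 572 of 3670 with DECR2, both on the same strand. DECR2 had 409 counts on average, and how reads in these stretches were assigned is not stated.

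MYC, a transcription factor known to activate many nucleotide synthesis genes through E-boxes, had 1008, 582 and 540.1 CPM with DMSO and 416, 420.3 and 449.7 CPM with erianin. All erianin libraries were lower, and DMSO replicate 1 was far above the rest (log2 fold change -0.73 ± 0.23, SE, adjusted p = 0.0599 by edgeR). MYC was called lower without DMSO replicate 1, at -0.38 ± 0.06 (adjusted p = 1.1e-05), and without DMSO replicate 3 at adjusted p = 0.039. It was also called lower by DESeq2 (adjusted p = 0.017) and by edgeR with no filter (adjusted p = 0.032). In 13 of the 17 alternatives it stayed without a call. MLX, a partner of MYC-related factors, fell by 0.35 on the log2 scale (adjusted p = 0.042), and lost its call in each fit that left out 1 library other than DMSO replicate 1 (0.11 to 0.20). MLX shares 770 of 4259 exonic bases with PSMC3IP on the opposite strand.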

How the data were processed

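RNA sequencing of SU-DHL-8 cells gave 3 DMSO and 3 erianin libraries, grouped and numbered by the sample titles. The files deposited by the authors hold raw counts for each gene and TPM. Tools listed by the submitters' processing notes are StringTie 2.2.1, featureCounts 2.0.1, STAR 2.7.10 and fastp 0.23.2, with GRCh38 as the build and no role for each. The annotation release, strand and multi-mapping settings were not given in sources used here. The deposited TPM columns summed to 39.2% of the full TPM total in DMSO replicate 1 and 63.6% to 66.7% elsewhere, so the report uses TPM only for ratios and shares within a library. limma fits between libraries on log2 TPM were also made and are given in the closing section.

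Repeated symbols (61 of 65807 entries) were left out, and edgeR's filterByExpr kept 11550 genes. The main test was edgeR 4.0.16 (R 4.3.3), quasi-likelihood, TMM scaling, treatment as the single term, Benjamini-Hochberg over all genes. The SE was derived from the log2 fold change and its F statistic. The fit was tested on simulated counts in which 200 of 11550 genes were changed. It called 59% of the 2-fold and 5% of the 1.5-fold changes, and 4.48% of its calls were false. These rates need not hold for the data, in which 2791 genes were called and DMSO replicate 1 stood apart. The simulation set no library apart. A gene that was not called was in any case not shown to be unchanged. Alternatives were other scalings, filters, a replicate block, each library left out, and fits by DESeq2 1.42.0, limma 3.58.1 and mgcv 1.9.3 (offsets for 11404 genes, 98.7% of those tested). Coordinates and transcript G and C content came from GENCODE 29 (GRCh38), which may differ from the authors' annotation.

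The 10 members and the related lists were chosen with earlier results of these data known. Named genes were the members, 17 related genes by name, and up to 3 further called genes with the smallest p per list. 1 of these genes is not reported here.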

Additional observations from a re-analysis of the deposited data

How the results depend on the processing

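Of the 10 members, 1 was called higher and 2 lower. With each library left out in turn, 0 to 2 were called higher and 0 to 4 lower, the most without DMSO replicate 1. None was called in either direction on the log2(TPM + 1) or log2(TPM + 0.1) scale (0 and 0). The lower count was 1 with the 1 CPM filter, limma-voom, total counts alone and upper-quartile scaling, and 0 with the replicate block. Under the replicate block IMPDH2 and CAD missed the threshold (adjusted p = 0.051 and 0.0501 by edgeR). Libraries of the same number did not all deviate together from their group means (correlations of 0.22, -0.23 and 0.32), so the numbers were not taken as pairs. The members' median of -0.11 became -0.0028 with total counts alone, 0.16 on the log2(TPM + 1) scale, 0.19 on the log2(TPM + 0.1) scale, and -0.12 to 0.0079 with 1 library left out. The median of all genes was 0.11 with total counts and 0.20 and 0.28 on the TPM scales, whose columns were not on a common scale between libraries. Related genes called higher and lower (3 and 14) were 5 and 22 by DESeq2, 1 and 1 or 1 and 0 on the TPM scales, and 0 to 8 and 3 to 28 with 1 library left out. The higher count was 1 with the replicate block, 6 with total counts and 5 with upper-quartile scaling. All genes called numbered 2791, 1670 and 1508 on the TPM scales and 745 to 6505 with 1 library left out. The share of calls that were higher, 49.0%, became 84.3% and 83.8% on the TPM scales. IMPDH1 kept its sign in all 17 alternatives (0.59 to 0.995) and lost its call in 5, IMPDH2 in 17 (-0.48 to -0.18) with 7 lost, CAD in 17 (-0.68 to -0.24) with 12 lost. Uncalled genes that changed sign were GART (0.15 and 0.15), PAICS (0.17 and 0.17), PFAS (0.21 and 0.22) and APRT (0.38 and 0.40) on the TPM scales, PFAS (0.0058) and APRT (0.052) with total counts, and APRT with upper-quartile scaling (0.0097), limma-voom (0.13) and the replicate block (0.11). With 1 library left out GART ran from -0.22 to 0.029, PAICS from -0.20 to 0.060, PFAS from -0.33 to 0.036, ADSL from -0.11 to 0.17, PRPS1 from -0.0045 to 0.16 and APRT from -0.44 to 0.21. The cause of these shifts was not tested.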
